A study of Mus musculus with 10 samples.

Results

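The 40 genes described here encode proteins that copy the genome, build the mitotic spindle and divide the cell. They were chosen by symbol for these roles, with earlier results of these data known, and all 40 are among the 23337 genes of the deposited count table. The RNA came from cardiomyocytes, the contracting cells of the heart, of 10 mice in 2 groups of 5. Knockout mice (KO) carried Actn2F/F, that is a floxed Actn2 on both chromosomes, and the comparison mice (HET) carried Actn2F/+, with a floxed and a normal copy. A floxed gene loses a segment where the recombinase Cre is present, and Actn2 encodes alpha-actinin-2 of the sarcomere's Z-line. Both groups received AAV9-cTNT-Cre on postnatal day 1, a virus whose cardiac troponin T promoter confines Cre to cardiomyocytes, so the HET cells had also been exposed to Cre and can have lost 1 copy. Cells were taken on postnatal day 14 by collagenase perfusion and fluorescence-activated sorting, with a gate that is not given in the sources used here. Each group is described as biological replicates, which the p-values below take as separate animals. From each, 10 ng of RNA was amplified by 8 PCR cycles before the library was made. No library of uninjected or fully wild-type mice was analysed here.

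As cells enter division, cyclin E with its kinase helps to release E2F transcription factors, which switch on the genes of DNA replication. Cyclins A and B with CDK1 then drive mitosis, and the anaphase-promoting complex ends it by having cyclin B and other proteins destroyed. Mouse cardiomyocytes divide before birth, go through a last round of replication in the days after it that often leaves a cell with a pair of nuclei, and then largely leave the cycle, while endothelial cells, fibroblasts and leukocytes of the young heart still divide. Many mitotic genes are held silent in resting cells by the DREAM complex, which binds a promoter element called CHR, often beside CCAAT boxes, and many replication genes carry E2F sites.

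Promoters of the 4 members whose level differed between the groups, and of Cdk1, whose promoter held matches to all 3 motifs searched, are shown to let the reader see these elements. Each run is the 250 bases before the start of the gene, 5′ to 3′ on the coding strand, from RefSeq in build GRCm38.p6, the assembly called mm10. Capitals mark matches on either strand to the CHR letters TTTGAA, to CCAAT, and to the E2F letters TTTCCCGC, TTTCGCGC, TTTGCCGC or TTTGGCGC. A match to one motif may overlap a match to another. The positions are chr6:88898781-88899030 (minus strand) for Mcm2, chr7:38107491-38107740 (minus) for Ccne1, chr5:30666636-30666885 (plus) for Cenpa, chr1:189688087-189688336 (minus) for Cenpf and chr10:69352913-69353162 (minus) for Cdk1.
Mcm2: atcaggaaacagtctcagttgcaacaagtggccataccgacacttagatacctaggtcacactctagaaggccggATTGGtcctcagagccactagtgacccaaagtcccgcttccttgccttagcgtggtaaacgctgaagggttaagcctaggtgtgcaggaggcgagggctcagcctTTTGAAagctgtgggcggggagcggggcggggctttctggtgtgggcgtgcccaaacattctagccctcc
Ccne1: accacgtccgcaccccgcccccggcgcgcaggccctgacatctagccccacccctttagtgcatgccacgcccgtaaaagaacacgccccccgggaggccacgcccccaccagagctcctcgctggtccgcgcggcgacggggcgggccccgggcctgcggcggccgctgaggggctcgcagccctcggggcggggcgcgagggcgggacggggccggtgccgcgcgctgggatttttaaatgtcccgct
Cenpa: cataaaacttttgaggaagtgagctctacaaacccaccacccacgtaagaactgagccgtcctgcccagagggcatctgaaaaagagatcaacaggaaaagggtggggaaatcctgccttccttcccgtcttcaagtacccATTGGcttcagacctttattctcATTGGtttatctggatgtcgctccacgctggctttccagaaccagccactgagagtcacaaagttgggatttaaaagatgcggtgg
Cenpf: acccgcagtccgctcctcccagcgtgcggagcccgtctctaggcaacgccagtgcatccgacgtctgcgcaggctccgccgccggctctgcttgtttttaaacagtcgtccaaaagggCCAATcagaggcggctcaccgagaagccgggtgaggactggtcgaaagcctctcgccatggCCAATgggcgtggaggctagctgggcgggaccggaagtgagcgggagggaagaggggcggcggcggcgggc
Cdk1: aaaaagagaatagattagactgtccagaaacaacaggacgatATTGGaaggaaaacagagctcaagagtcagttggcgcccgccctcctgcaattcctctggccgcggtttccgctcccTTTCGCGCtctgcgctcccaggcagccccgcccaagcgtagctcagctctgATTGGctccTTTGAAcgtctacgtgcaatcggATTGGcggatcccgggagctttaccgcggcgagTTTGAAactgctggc
In a window of 300 bases that adds the first 50 bases of the gene, TTTGAA was found in 18 of the 33 members with a RefSeq promoter (54.5%), against 11.3% of the 8530 tested genes with one and 18.1% of all 27025 genes. CCAAT was found in 27 of 33 (81.8%), against 39% of tested and 37.9% of all genes. The E2F letters were found in 5 of 33 (15.2%), against 4.23% of tested and 2.32% of all genes. By role, TTTGAA was present in 17 of 22 members of G2 and mitosis and in 1 of 11 of G1 and S phase, which was Mcm2, 70 bases before the start. The E2F letters were present in 4 of those 11, Mcm3, Mcm5, Mcm6 and Mcm7, and in Cdk1 alone of the 22. In Cenpa and Cenpf, TTTGAA lay past the start, at bases 17 and 3 of the gene, so that it is not in the runs shown. Ccne1 held none of these letters in its window. Where a gene had more than 1 promoter, members were read at the promoter nearest their annotated start. The genes they are set against were read at the first promoter listed, so the shares rest on starts chosen differently. A match of letters is a description and not a measured binding site.

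The libraries held 8086656 to 25237696 counts, of which HET 1 had the most. Actn2, the targeted gene, was at 1145 to 1286 CPM (counts per 1000000 of the TMM-scaled library total) in the KO and at 2677 to 3474 CPM in the HET, so that no library went against its label. Of 11870 genes tested across the table, 2241 differed between the groups with the quasi-likelihood test of edgeR (Benjamini-Hochberg adjusted p under 0.05, which is what "called" means below), 1216 higher and 1025 lower in the KO. The 8 cardiomyocyte markers examined were detected in every library, with a summed level of 98680 to 122536 CPM in the HET and 93810 to 118712 CPM in the KO. Of these, 1 (12.5%, against 18.9% of all genes tested) was called lower, Tnni3, cardiac troponin I (0.693 of the HET level, adjusted p 0.00165, all KO below all HET). An unadjusted p below 0.05 was found for 2 (25%, against 32.4% of all genes tested). HET 3 stood apart in the leukocyte markers, with a sum of 43.6 CPM against at most 22.9 in the other HET libraries.

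Transcripts of the proliferation genes were present in every library at low levels. All 40 had at least 1 count in each of the 10 libraries, and also at least 5, and the lowest count of any member in any library was 10 and the highest 1132. All 40 were also detected after thinning every library to the smallest total. All 40 passed the filter on low counts, so no member was left out of the test. The median member stood at a mean of 10.5 CPM, against 23.5 CPM for the median gene tested, and 36 of 40 lay below that median. Per kilobase of exon, member levels ran from 0.541 CPM per kb for Cenpe to 32.4 for Cenpa, with a median of 2.67 against 7.61 over all genes tested. Summed over the 40 genes, the level was 519, 469, 580, 749 and 592 CPM in HET 1 to 5 and 309, 396, 456, 474 and 523 CPM in KO 1 to 5. The groups overlapped in this sum, with KO 5 and KO 4 above the lowest HET library, and the means were 582 ± 106 CPM in the HET and 432 ± 82.3 CPM in the KO (SD, n = 5). As a share of all counts, the extremes were 0.0304% (Wilson 95% interval 0.0293 to 0.0315%) in KO 1 and 0.0765% (0.0747 to 0.0784%) in HET 4, where the interval covers counting error only.

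Few of the 40 genes were called one by one, and all 40 had a lower mean in the KO. Every member had a log2 fold change below 0 in the KO, from -1.23 for Cenpf to -0.12 for Ube2c, with a median of -0.44, whereas 49.7% of all genes tested were below 0 and their median was 0.0023. Only 4 members were called, all lower in the KO: Mcm2, Ccne1, Cenpa and Cenpf. That is 10% of the members against 18.9% of all genes tested, or 8.64% counting lower genes only (10.2% were higher), so the share called was near the background. At an unadjusted p below 0.05 there were 15 members, all lower (37.5%), against 32.4% of all genes in either direction and 15.7% lower. In 3 members (7.5%) every KO library lay below every HET library, against 6.32% of all genes tested. The standard error of a member's log2 fold change had a median of 0.233, against 0.147 over all genes tested. In sorted bulk cells, fewer dividing cells and less of these transcripts per cell cannot be told apart.

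**Figure D1:**
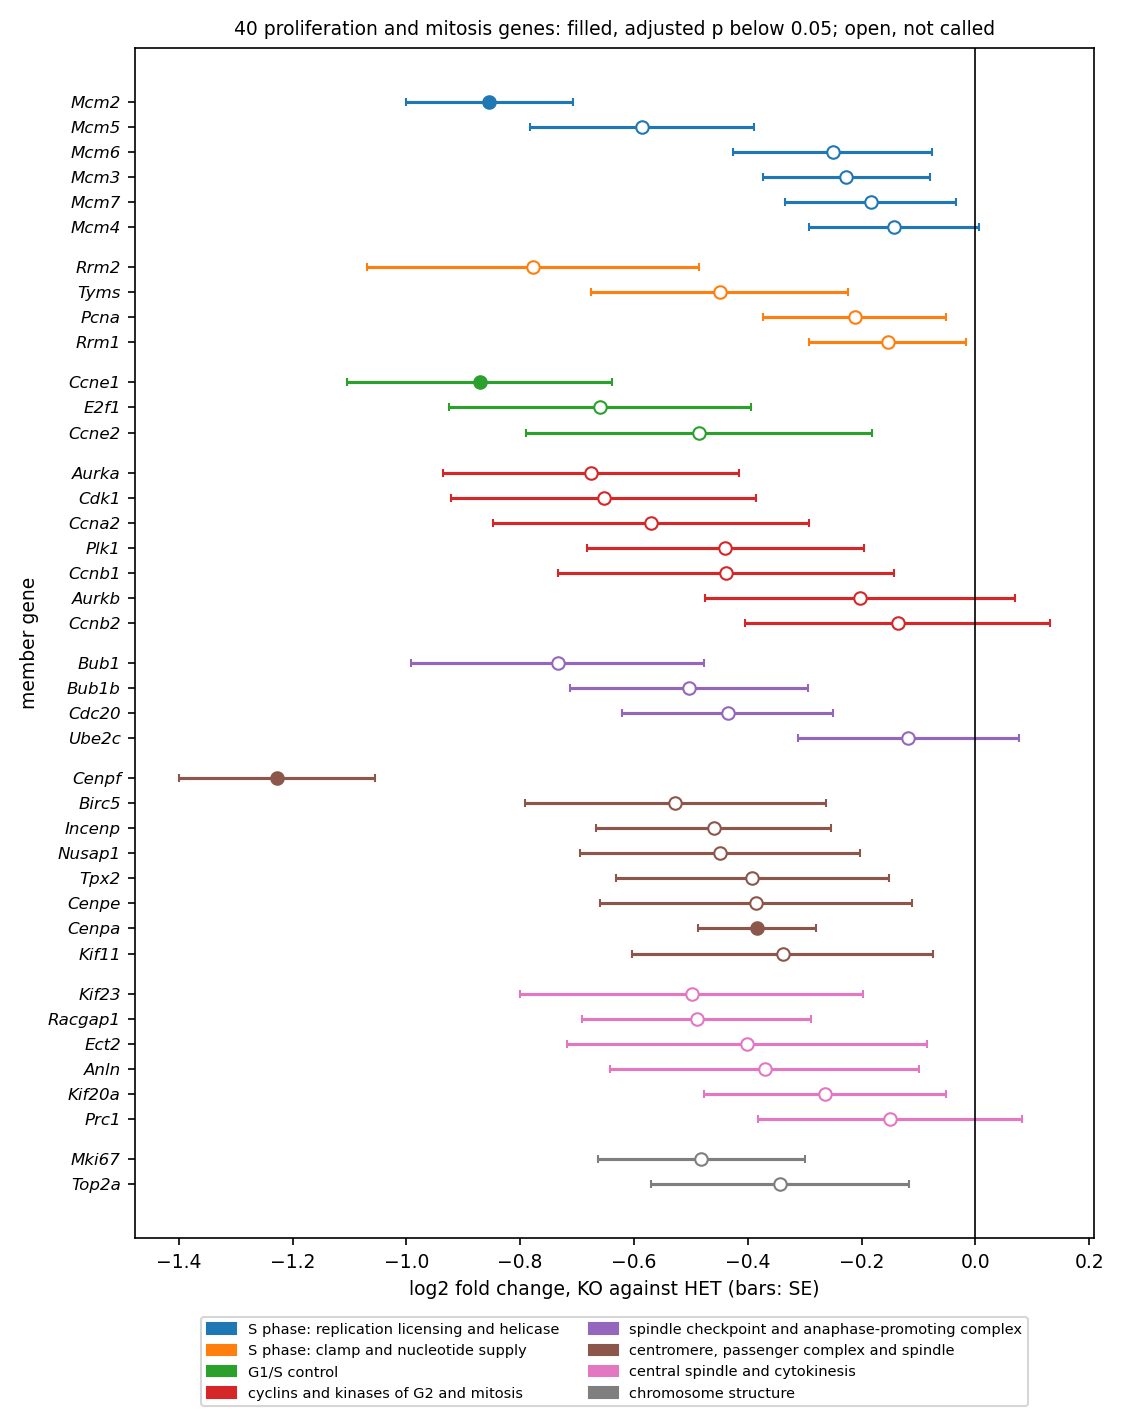
Log2 fold change of each of the 40 genes in KO against HET (x axis, unitless), with bars of 1 standard error, in blocks and colours by role. All points lie left of 0, and the 4 filled points, Mcm2, Ccne1, Cenpf and Cenpa, have an adjusted p below 0.05.

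The size of the difference varied with the libraries included, and HET 4 and KO 1 were the extremes for most members. HET 4 was the highest of the 5 HET libraries in 30 of 40 members (75%), against 23% of all genes tested, and KO 1 was the lowest of the 5 KO libraries in 28 (70%), against 21.1% of all genes. Within the KO, the highest library was KO 5 in 20 members and KO 4 in 13. Within the HET, the lowest was HET 2 in 18. Without HET 4 the median log2 fold change of the members was -0.30, and 38 were below 0. With HET 4 and KO 1 both left out, a choice made after seeing their values, the median was -0.19, 35 were below 0 and 5 had an unadjusted p below 0.05. The calls then were Ccne1, Cenpf and Mcm2 (7.5%, against 8.26% of all genes called lower). Cenpa was not called (adjusted p 0.0647). As these libraries were picked as extremes, a smaller difference without them follows from the choice. Leaving out a library from the opposite end went the other way. Without KO 5, 9 members were called (22.5%, against 7.15% of all genes called lower) and 18 had an unadjusted p below 0.05. Without HET 2, 5 were called (12.5%, against 8.24%) and 20 had an unadjusted p below 0.05. The share of all genes with an unadjusted p below 0.05 was not computed for these reduced sets of libraries.

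**Figure D2:**
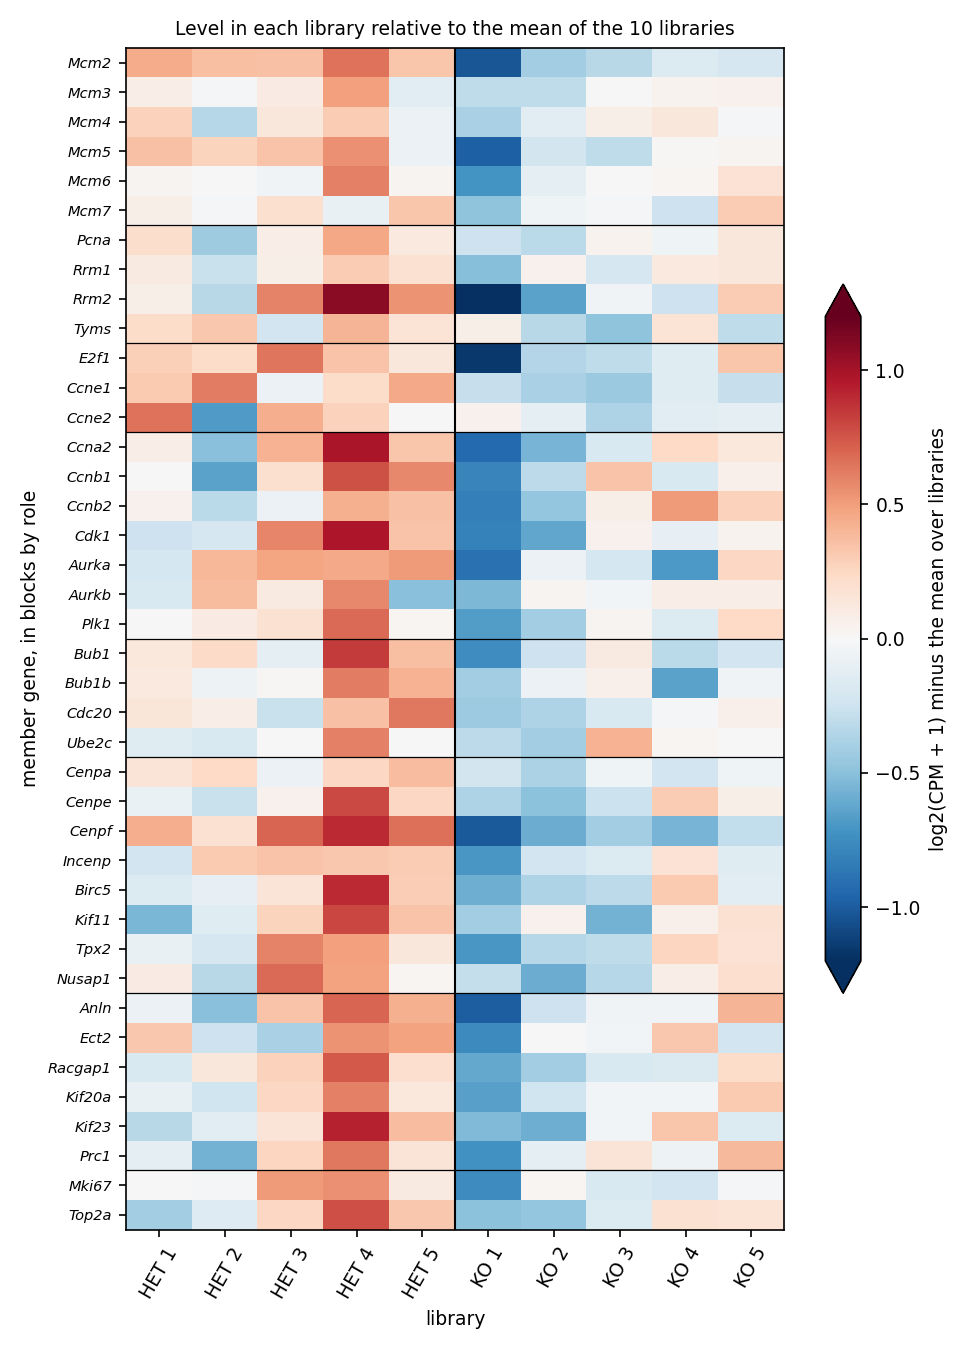
Each row is a member gene and each column a library, and the colour gives log2(CPM + 1) minus its mean over the 10 libraries, from blue (lower) to red (higher). HET 4 is the highest of the 10 libraries for 29 genes and KO 1 the lowest for 28, which gives the reddest and the bluest column.

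Markers of other cells were measured beside these genes. The 10 endothelial markers were all detected in all libraries and summed to 560, 611, 691, 824 and 520 CPM in HET 1 to 5 and to 446, 526, 427, 600 and 339 CPM in KO 1 to 5. HET 4 was highest in this sum as in the members' sum, while KO 5, highest of the KO in the members' sum, was lowest of all libraries in endothelial markers. All 10 endothelial markers had log2 fold changes below 0, with a median of -0.43. An unadjusted p below 0.05 was found for 9 of 10 (90%), all lower, against 32.4% of all genes tested and 37.5% of the members. Of the 10, 2 (20%, against 18.9% of all genes) were called lower, Egfl7 (-0.65, adjusted p 0.00612) and Cldn5 (-0.76, adjusted p 0.0365). DESeq2 called 5 of the 10, where it called 22.1% of all genes and 11% as lower. The call of Cldn5 was lost without HET 3, HET 4, KO 1, KO 2, KO 3 or KO 5 (adjusted p 0.0677 to 0.0871). It was also lost with library totals alone (0.0686), after thinning (0.0594) and without HET 4 and KO 1 together (0.156). The 10 leukocyte markers, of which 8 were detected in every library, summed to 16.1 to 43.6 CPM in the HET and 10.2 to 14.0 CPM in the KO without overlap. All 7 tested had log2 fold changes below 0, with a median of -0.86. An unadjusted p below 0.05 was found for 3, all lower (42.9%, against 32.4% of all genes in either direction and 15.7% lower). In edgeR 1 of the 7 (14.3%, against 18.9% of all genes) was called lower, Csf1r (-0.86, adjusted p 0.0216). The call of Csf1r was lost without HET 3 (0.0549), without KO 3 (0.0526) and without HET 4 and KO 1 together (0.0602). After thinning to the smallest total it was also lost (-0.69, adjusted p 0.155). DESeq2 called 3 of the 7, C1qb, Csf1r and Lyz2, where it called 22.1% of all genes. The 8 fibroblast markers summed to 297 to 492 CPM in the HET and 272 to 594 CPM in the KO, with 0 of 7 tested called and the smallest adjusted p at 0.114 in edgeR (0 were called by DESeq2 or voom, and 1 had an unadjusted p below 0.05). The 5 mural markers summed to 156 to 260 CPM in the HET and 190 to 286 CPM in the KO. Of these, 1 (20%, against 18.9% of all genes) was called, Cspg4, which was higher (1.84, adjusted p 1.23e-06). Cspg4 went from 37.0 to 132 CPM in the mean, and the higher sum in the KO came from Cspg4 alone. The other mural markers, Pdgfrb, Rgs5, Notch3 and Myh11, had log2 fold changes of -0.65 to -0.33 and were not called, and the median of the list was -0.34. Of 5 erythroid markers, 4 globin genes were at 0 in every library, but Hba-a1 with Hba-a2 and Hbb-b1 with Hbb-b2 have nearly the same exons in the table, so that reads shared by both are not counted and these zeros say nothing of erythroid cells. Alas2 was detected in every library, at 0.0976 to 1.15 CPM. The part of these cells in the members' levels was not tested.

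**Figure D3:**
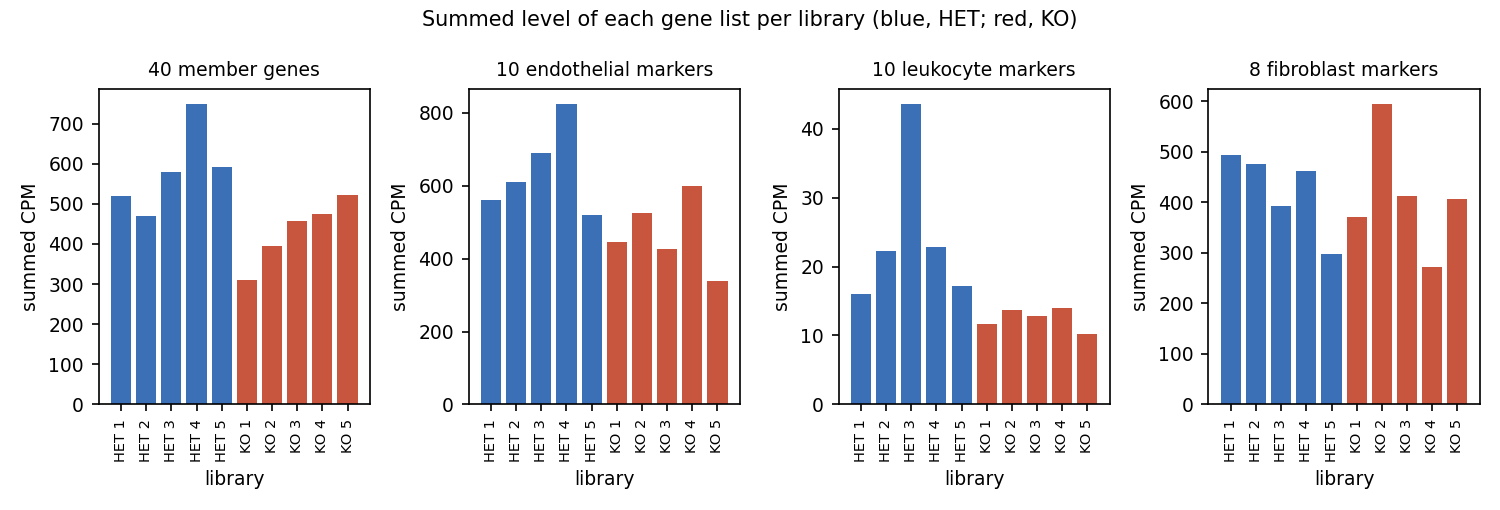
Bars give the summed CPM of the 40 member genes and of the endothelial, leukocyte and fibroblast marker lists in each library (HET blue, KO red, 1 library a bar). HET 4 is highest for the members (749 CPM) and the endothelial markers (824 CPM), HET 3 for the leukocyte markers (43.6 CPM) and KO 2 for the fibroblast markers (594 CPM).

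The genes of entry into S phase come first. Ccne1 encodes cyclin E1, the partner of CDK2 at the G1/S boundary, and occupies bases 38097984 to 38107490 of chromosome 7 in mm10 (minus strand). Its level was 3.49, 4.54, 2.43, 3.22 and 3.94 CPM in HET 1 to 5 and 1.98, 1.76, 1.66, 2.26 and 1.98 CPM in KO 1 to 5. Every KO library lay below every HET library at these low levels, and Ccne1 fell to 0.547 of the HET level (log2 fold change -0.87, SE 0.233, adjusted p 0.0175). After each library was thinned to the depth of the shallowest, the log2 fold change was -0.60 and the call was lost (adjusted p 0.180). E2f1, the transcription factor that activates replication genes, was at 7.10, 6.75, 9.36, 7.44 and 6.30 CPM in HET 1 to 5 and 1.98, 4.20, 4.39, 5.03 and 7.36 CPM in KO 1 to 5. KO 5 was within the HET range and the other KO libraries lay below it, and E2f1 was not called (log2 fold change -0.66, SE 0.265, adjusted p 0.0991), except when KO 5 was left out (-0.91, adjusted p 0.0240). The paralog of cyclin E1, Ccne2, had a log2 fold change of -0.49 (adjusted p 0.295). An exon of Ccne2 overlaps an exon of Ints8 by 1599 bases, so the counts of Ccne2 are uncertain.

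The licensing helicase, the ring of MCM2 to MCM7 that is loaded on replication origins and unwinds DNA, gave 1 call in 6, which was lower. That is 16.7%, against 18.9% of all genes called and 8.64% called lower. Mcm2 lies on chromosome 6 at 88883474 to 88898780 (minus strand). It was at 45.2, 42.6, 42.2, 52.2 and 41.5 CPM in HET 1 to 5 and 15.6, 24.4, 25.9, 29.1 and 28.4 CPM in KO 1 to 5. All KO libraries lay below all HET libraries, and KO 1 was the lowest. Mcm2 fell to 0.553 of the HET level (log2 fold change -0.85, SE 0.147, adjusted p 0.00109), and it was called in all 21 alternatives run, with log2 fold changes of -0.92 to -0.67. Mcm5 was at 16, 15, 15.8, 18.4 and 11.6 CPM in HET 1 to 5 and 5.73, 10.4, 9.76, 12.4 and 12.6 CPM in KO 1 to 5. KO 4 and KO 5 overlapped HET 5, the lowest HET library, and Mcm5 stood just above the threshold (log2 fold change -0.59, SE 0.197, adjusted p 0.0511). It was called in 7 of the 21 alternatives, which were RLE and upper-quartile scaling, DESeq2, voom, and the fits without HET 5 (adjusted p 0.0340), KO 4 (0.0469) or KO 5 (0.0426). The other subunits of the same ring, Mcm3, Mcm4, Mcm6 and Mcm7, overlapped between the groups, with log2 fold changes of -0.25 to -0.14 and adjusted p of 0.313 to 0.555. Mcm6 turned to 0.015 without HET 4 and KO 1. Whether Mcm2 differed from the other subunits in its change was not tested.

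Among genes that supply nucleotides and hold the polymerase on DNA, none of 4 was called in edgeR or DESeq2 and 1 in voom. Of all genes, these tools called 18.9%, 22.1% and 21.3%. In edgeR 1 had an unadjusted p below 0.05 and was lower (25%, against 32.4% of all genes in either direction and 15.7% lower). Rrm2, the regulated small subunit of ribonucleotide reductase that cells make in S phase, was at 27.9, 20.9, 40.8, 57.5 and 39.2 CPM in HET 1 to 5 and 10, 16.7, 25.8, 22.2 and 33.1 CPM in KO 1 to 5. The spread within each group was wide, with HET 4 at 57.5 and KO 1 at 10.0 CPM, and the groups overlapped (log2 fold change -0.78, SE 0.292, adjusted p 0.0793). Rrm1, the large subunit, was at 44.7, 34.3, 43.6, 51.3 and 47.1 CPM in HET 1 to 5 and 28.8, 43, 35.9, 44.8 and 45.7 CPM in KO 1 to 5. Here 4 KO libraries lay within the HET range and KO 1 below it (log2 fold change -0.15, SE 0.138, adjusted p 0.480). Pcna, the sliding clamp, and Tyms, thymidylate synthase, had log2 fold changes of -0.21 and -0.45 (adjusted p 0.398 and 0.186). Rrm2 was called with voom (adjusted p 0.0474), without HET 2 (0.0373), without KO 5 (0.0337) and with the replicate number as a block (0.0108).

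**Figure D4:**
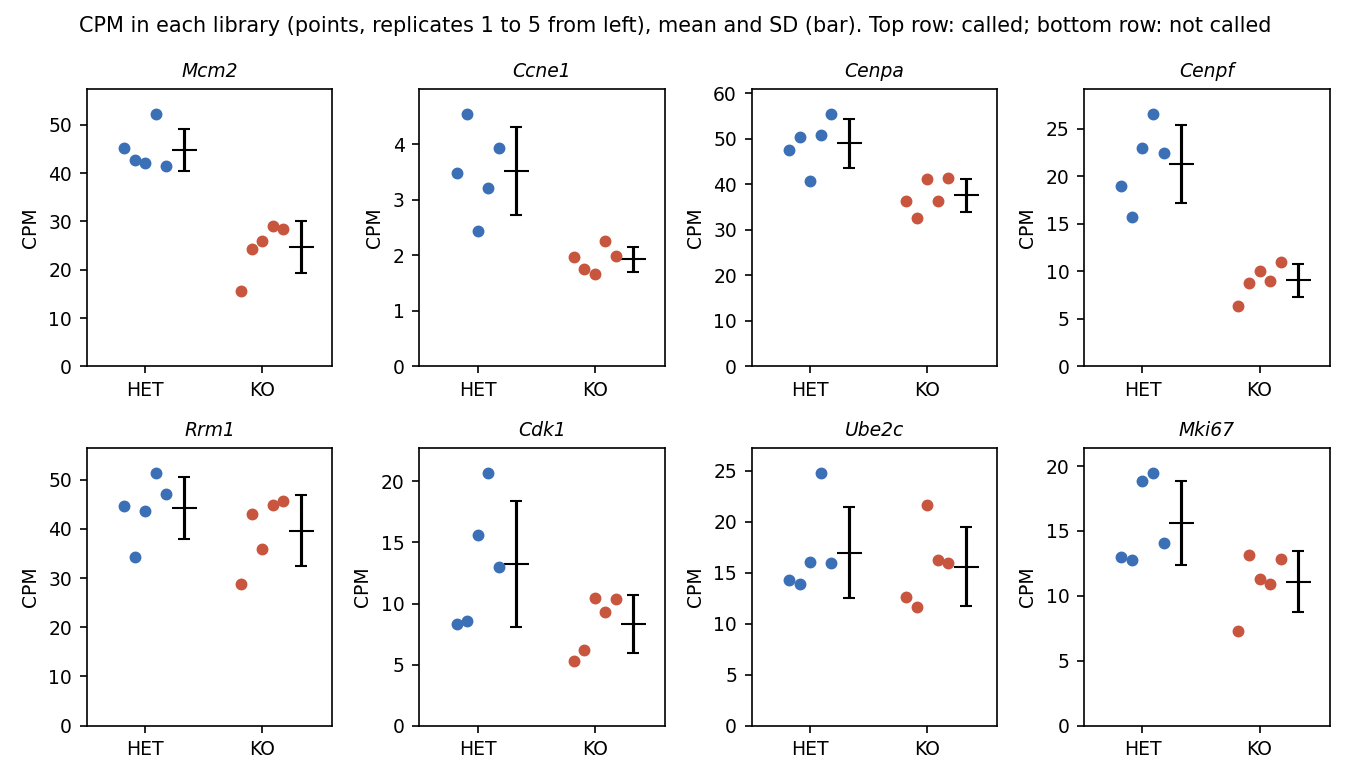
Points give the CPM of 8 member genes in each library (5 HET in blue, 5 KO in red, replicates 1 to 5 from left), with the mean and SD beside them. The upper row holds the 4 called genes, of which only Cenpa has overlapping groups, and the lower row holds 4 genes that were not called, all with overlap.

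None of the 7 cyclins and kinases of G2 and mitosis was called in edgeR or voom and 1 in DESeq2. Of all genes, these tools called 18.9%, 21.3% and 22.1%. In edgeR 2 had an unadjusted p below 0.05, both lower (28.6%, against 32.4% of all genes in either direction and 15.7% lower). Cdk1, the kinase that drives entry into mitosis, was at 8.32, 8.60, 15.6, 20.6 and 13 CPM in HET 1 to 5 and 5.31, 6.19, 10.4, 9.34 and 10.4 CPM in KO 1 to 5. HET 1 and HET 2 lay below KO 3, 4 and 5, and HET 3 to 5 lay above all KO libraries (log2 fold change -0.65, SE 0.268, adjusted p 0.107). Cdk1 was called only with the replicate number as a block (-0.64, adjusted p 0.0197). Aurka, the kinase of spindle poles, was at 4.96, 8.10, 8.59, 8.44 and 8.86 CPM in HET 1 to 5 and 2.71, 5.58, 4.98, 3.28 and 7.19 CPM in KO 1 to 5. HET 1 lay within the KO range and the other HET libraries above it (log2 fold change -0.68, SE 0.260, adjusted p 0.0862). Aurka was called without HET 1 (-0.82, adjusted p 0.0435), without KO 5 (-0.88, 0.0316), with DESeq2 (-0.70, 0.0447) and with the replicate number as a block (-0.75, 0.0232). Ccna2, cyclin A2, which acts in S phase and early mitosis, was the most abundant of the 7 in CPM. It was at 13.6, 8.72, 17.4, 26.2 and 16.4 CPM in HET 1 to 5 and 6.25, 8.40, 11.1, 15.3 and 14.1 CPM in KO 1 to 5, with HET 2 below 3 KO libraries (log2 fold change -0.57, SE 0.277, adjusted p 0.171). Ccna2 was called only with the replicate number as a block (-0.56, adjusted p 0.0401). An exon of Ccna2 overlaps an exon of Exosc9 by 299 bases, so the counts of Ccna2 are uncertain. Ccnb1, Ccnb2, Plk1 and Aurkb had log2 fold changes of -0.44 to -0.14 and adjusted p of 0.232 to 0.774. Those of Ccnb2 and Aurkb turned positive in 2 alternatives each.

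The spindle checkpoint holds back the anaphase-promoting complex until all chromosomes are attached. None of its 4 genes here was called in edgeR or voom and 1 in DESeq2. Of all genes, these tools called 18.9%, 21.3% and 22.1%. In edgeR 3 had an unadjusted p below 0.05, all lower (75%, against 32.4% of all genes in either direction and 15.7% lower). Bub1, a checkpoint kinase at kinetochores, was at 4.28, 4.67, 3.46, 7.66 and 5.21 CPM in HET 1 to 5 and 1.87, 3.06, 4.19, 2.87 and 3.11 CPM in KO 1 to 5. HET 3 lay below KO 3, and the remaining HET libraries lay above all KO libraries (log2 fold change -0.73, SE 0.257, adjusted p 0.0618). Bub1 was called with DESeq2 (adjusted p 0.0318), without HET 3 (0.0402) and without KO 3 (0.0482). Bub1b, which encodes the checkpoint protein BUBR1, was at 6.93, 6.02, 6.41, 10.2 and 8.76 CPM in HET 1 to 5 and 4.48, 5.96, 6.63, 3.69 and 6.11 CPM in KO 1 to 5, with KO 3 above HET 2 and HET 3, and KO 5 above HET 2 (log2 fold change -0.50, SE 0.209, adjusted p 0.112). Cdc20, the activator of the anaphase-promoting complex, was at 11.9, 11.3, 8.71, 13.9 and 17.1 CPM in HET 1 to 5 and 7.60, 8.02, 9.27, 10.5 and 11.1 CPM in KO 1 to 5. HET 3 was the lowest HET library and lay within the KO range (log2 fold change -0.44, SE 0.185, adjusted p 0.118), and without it Cdc20 was called (-0.54, adjusted p 0.0447). An exon of Cdc20 overlaps Elovl1 by 16 bases. Ube2c, the enzyme that passes ubiquitin to the targets of that complex, was at 14.3, 13.9, 16, 24.8 and 15.9 CPM in HET 1 to 5 and 12.6, 11.7, 21.7, 16.2 and 16 CPM in KO 1 to 5. KO 3 exceeded 4 HET libraries, and Ube2c had the smallest log2 fold change of all members (log2 fold change -0.12, SE 0.194, adjusted p 0.727). It was 0.054 without HET 4.

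The centromere is where spindle microtubules take hold of a chromosome. Of 8 genes of the centromere, the passenger complex and the spindle, 2 were called, both lower. That is 25%, against 18.9% of all genes called and 8.64% called lower. Cenpf encodes a large kinetochore protein made in G2 and lies on chromosome 1 at 189640614 to 189688086 (minus strand). It was at 19, 15.7, 22.9, 26.5 and 22.4 CPM in HET 1 to 5 and 6.35, 8.78, 10, 9.03 and 11 CPM in KO 1 to 5. All KO libraries lay below all HET libraries, and Cenpf had the largest difference of the 40 genes, a fall to 0.427 of the HET level (log2 fold change -1.23, SE 0.172, adjusted p 0.000218). It was called in all 21 alternatives, with log2 fold changes of -1.33 to -1.04. Cenpa, the histone variant that marks centromeres, lies on chromosome 5 at 30666902 to 30674826 (plus strand) and had the highest level of the members per kilobase. It was at 47.5, 50.5, 40.8, 50.8 and 55.4 CPM in HET 1 to 5 and 36.4, 32.7, 41.1, 36.2 and 41.3 CPM in KO 1 to 5. HET 3 lay below KO 3 and KO 5, and the remaining HET libraries above all KO libraries. Cenpa fell to 0.766 of the HET level (log2 fold change -0.38, SE 0.103, adjusted p 0.0181), and the call was lost with library totals alone (adjusted p 0.0648) and without KO 2 (0.0501). Incenp, the scaffold of the chromosomal passenger complex that holds Aurora B, was at 5.25, 8.10, 8.33, 8.21 and 8.07 CPM in HET 1 to 5 and 3.54, 5.27, 5.56, 7.29 and 5.66 CPM in KO 1 to 5. HET 1 lay within the KO range and the other HET libraries above it (log2 fold change -0.46, SE 0.207, adjusted p 0.140). Birc5 (survivin, of the same complex), Cenpe and Kif11 (motor proteins), Tpx2 (an activator of Aurora A) and Nusap1 (a microtubule-binding protein) had log2 fold changes of -0.53 to -0.34 and adjusted p of 0.185 to 0.413. An exon of Nusap1 overlaps an exon of Oip5 by 208 bases.

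Cytokinesis splits the cell after mitosis, and binucleation is mitosis without its completion. None of 6 genes of the central spindle and the cleavage furrow was called in edgeR, DESeq2 or voom. Of all genes, these tools called 18.9%, 22.1% and 21.3%. In edgeR 1 had an unadjusted p below 0.05 and was lower (16.7%, against 32.4% of all genes in either direction and 15.7% lower). Racgap1, a subunit of centralspindlin, was at 11, 14, 15.5, 21.8 and 14.7 CPM in HET 1 to 5 and 7.91, 9.24, 11, 11.1 and 14.9 CPM in KO 1 to 5. KO 5 lay above HET 1, 2 and 5, and KO 4 above HET 1 (log2 fold change -0.49, SE 0.201, adjusted p 0.106). Without KO 5, Racgap1 was called (-0.64, adjusted p 0.0429). Prc1, which bundles the microtubules of the central spindle, was at 14.8, 10.6, 19.5, 25.5 and 18.1 CPM in HET 1 to 5 and 9.37, 14.8, 18.1, 15.4 and 21.4 CPM in KO 1 to 5, with KO 5 above 4 HET libraries (log2 fold change -0.15, SE 0.233, adjusted p 0.709). Without HET 4 its log2 fold change was 0.016. Anln (anillin, of the furrow), Ect2 (the activator of RhoA there), Kif20a and Kif23 (motors of the central spindle) had log2 fold changes of -0.50 to -0.26 and adjusted p of 0.275 to 0.426. Single exons of Kif20a overlap exons of Cdc23 by up to 977 bases and exons of Brd8 by up to 187 bases.

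Neither of the 2 usual markers of dividing cells was called in edgeR or voom and 1 was in DESeq2. Of all genes, these tools called 18.9%, 21.3% and 22.1%. In edgeR 1 had an unadjusted p below 0.05 and was lower (50%, against 32.4% of all genes in either direction and 15.7% lower). Mki67 encodes Ki-67, which coats mitotic chromosomes and is stained to find cycling cells. It was at 13, 12.8, 18.8, 19.4 and 14.1 CPM in HET 1 to 5 and 7.29, 13.1, 11.3, 10.9 and 12.8 CPM in KO 1 to 5. KO 2 lay above HET 1 and 2, and KO 5 reached HET 2 (log2 fold change -0.48, SE 0.182, adjusted p 0.0814). With DESeq2, Mki67 was called (adjusted p 0.0443). Top2a, the topoisomerase that untangles sister chromosomes, was at 11.2, 13.6, 18.3, 26.9 and 19.4 CPM in HET 1 to 5 and 10.6, 10.8, 13.6, 17.5 and 17.3 CPM in KO 1 to 5, with HET 1 and 2 within the KO range and HET 3 to 5 above it (log2 fold change -0.34, SE 0.226, adjusted p 0.323).

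Cell-cycle genes outside these 40 were read from a list of 103, of which 96 were tested. In these, 9 were called (9.38%), 7 lower and 2 higher, against the 18.9% of all genes tested, and 76 had a log2 fold change below 0, with a median of -0.25. Controllers of G1 went both ways. Cdk6, a kinase partner of D cyclins, was at 14.4, 12.4, 17, 14 and 10.5 CPM in HET 1 to 5 and 4.69, 4.05, 5.07, 5.64 and 8.32 CPM in KO 1 to 5. The groups were apart, and Cdk6 fell to 0.411 of the HET level (log2 fold change -1.28, SE 0.204, adjusted p 0.000599). Ccnd3, cyclin D3, was at 85, 123, 98.7, 95.4 and 82.2 CPM in HET 1 to 5 and 130.2, 128, 132, 133 and 139.6 CPM in KO 1 to 5, apart in the other direction, and rose 1.37-fold (log2 fold change 0.46, SE 0.108, adjusted p 0.00889). Cyclin D2 (Ccnd2), the most abundant of this group, was not called (0.17, adjusted p 0.323).

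Of the inhibitors of cyclin-dependent kinases, 5 of 7 were tested. Cdkn1a, which encodes p21 and is induced by p53 among others, was at 45.9, 85.7, 74.1, 96.9 and 51.6 CPM in HET 1 to 5 and 157, 71, 134, 158 and 185 CPM in KO 1 to 5. KO 2 lay within the HET range and the other KO libraries above it, and Cdkn1a rose 2.0-fold (log2 fold change 1.00, SE 0.243, adjusted p 0.0104). Cdkn1c, which encodes p57, was at 8.82, 9.46, 10.1, 22.2 and 11.8 CPM in HET 1 to 5 and 7.70, 8.94, 6.15, 7.70 and 6.51 CPM in KO 1 to 5. HET 4 was far above the rest, and Cdkn1c fell to 0.596 of the HET level with overlap between the groups (log2 fold change -0.75, SE 0.242, adjusted p 0.0440). Without HET 4 its log2 fold change was -0.44 (adjusted p 0.0852), and the call was also lost without HET 5 or any single KO library (0.0504 to 0.103). Library totals alone (0.0768), voom (0.0545) and leaving out HET 4 and KO 1 together (0.117) lost it too. Cdkn2d, the most abundant after Cdkn1a, was at 30.5 ± 2.06 CPM in the HET and 29.5 ± 1.81 CPM in the KO (SD, n = 5; log2 fold change -0.05, SE 0.0930, adjusted p 0.768).

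**Figure D5:**
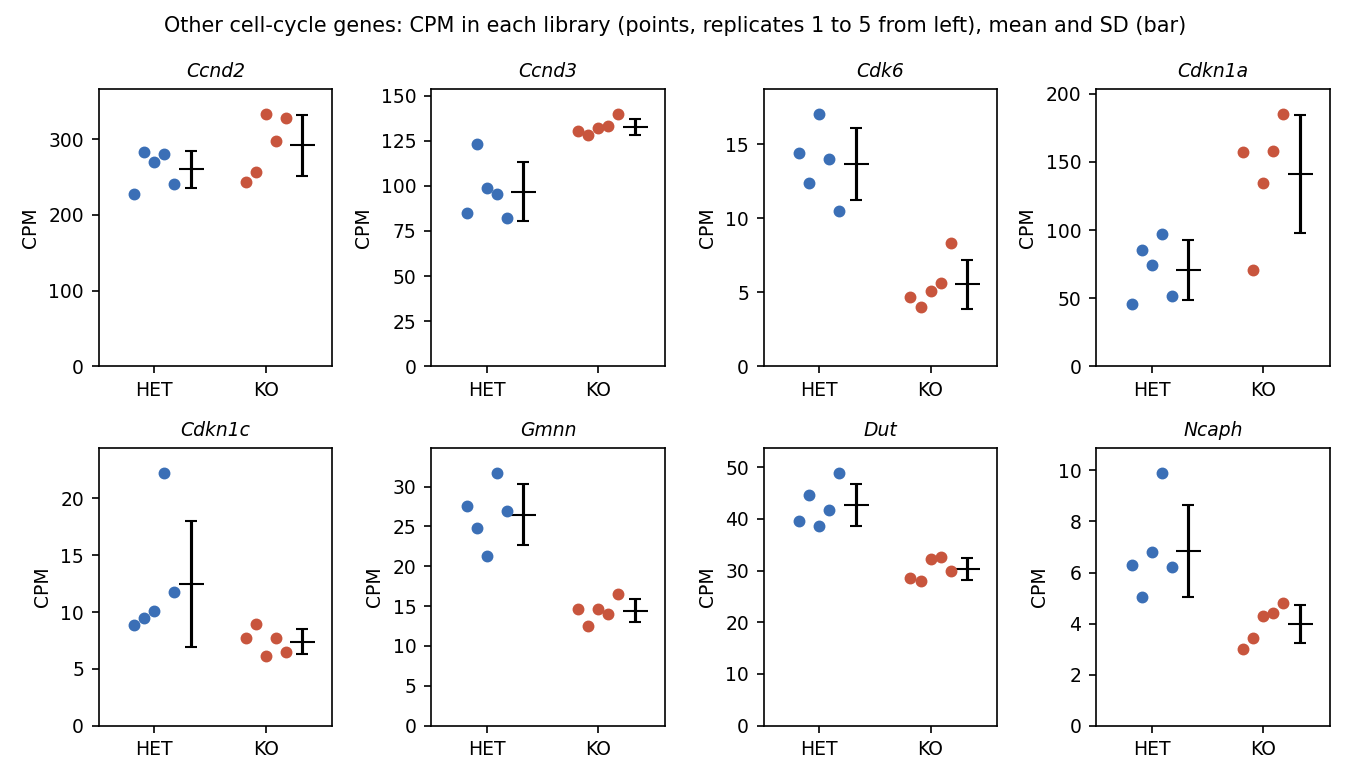
Points give the CPM of 8 cell-cycle genes outside the 40 in each library (5 HET in blue, 5 KO in red, replicates 1 to 5 from left), with the mean and SD beside them. Ccnd3 and Cdkn1a are higher in the KO, Cdk6, Cdkn1c, Gmnn, Dut and Ncaph are lower, and Ccnd2 was not called.

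Among other replication genes, 3 of 22 tested were called, all lower (13.6%, against 18.9% of all genes called and 8.64% called lower). Gmnn encodes geminin, which blocks a repeat of origin licensing. It was at 27.6, 24.8, 21.3, 31.6 and 27 CPM in HET 1 to 5 and 14.6, 12.4, 14.6, 14 and 16.5 CPM in KO 1 to 5, with the groups apart (log2 fold change -0.87, SE 0.127, adjusted p 0.000281). Dut, which clears dUTP from the nucleotide pool, fell from 42.7 ± 4.11 to 30.3 ± 2.09 CPM without overlap (SD, n = 5; log2 fold change -0.50, SE 0.0964, adjusted p 0.00258). Cdc45, a part of the active helicase, fell from 8.40 ± 0.939 to 5.52 ± 1.18 CPM, with KO 5 just above HET 5 (SD, n = 5; log2 fold change -0.59, SE 0.176, adjusted p 0.0310). The call of Cdc45 was lost without HET 2, HET 4, KO 1, KO 2, KO 3 or KO 4 (0.0514 to 0.0712). It was also lost with library totals alone (0.0642) and without HET 4 and KO 1 together (0.103). Dnmt1, the most abundant there after Dut, was not called (0.03, adjusted p 0.907). Of 47 other mitosis genes tested, 2 were called lower (4.26%, against 8.64% of all genes). These were the condensin subunit Ncaph (log2 fold change -0.77, SE 0.214, adjusted p 0.0217) and the chromosome motor Kif22 (log2 fold change -0.66, SE 0.190, adjusted p 0.0254). An unadjusted p below 0.05 was found for 12, all lower (25.5%, against 32.4% of all genes in either direction and 15.7% lower). DESeq2 called 6 of the 47 and voom 7, where they called 22.1% and 21.3% of all genes (11% and 9.64% lower). The call of Ncaph was lost without HET 4, KO 1 or KO 2 (0.0510 to 0.0534), and that of Kif22 without HET 5, KO 2 or KO 3 (0.0544 to 0.0620). Kif22 also lost it with library totals alone (0.0534). Without HET 4 and KO 1 together neither was called (0.100 for Ncaph and 0.0798 for Kif22). The most abundant of them, Pttg1 (securin) and Fzr1 (an activator of the anaphase-promoting complex), were not called (-0.09 and -0.04, adjusted p 0.747 and 0.835). Of 16 tested genes of the pocket proteins, E2F factors and the DREAM complex, 0 were called in edgeR, DESeq2 or voom. An unadjusted p below 0.05 was found for 3, all higher (18.8%, against 32.4% of all genes in either direction), and the median log2 fold change was -0.06. E2f6 and Tfdp2, the most abundant of these, had log2 fold changes of -0.04 and -0.07 (adjusted p 0.804 and 0.735).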

How the data were processed

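The deposited table holds whole-number counts of reads per gene on mm10. The authors made it with featureCounts 1.5.1, per the file headers, which name the alignments with a default name of another aligner, while the submitters' processing notes list STAR 2.5.3a, CASAVA 1.8 and Subread 1.5.2. The counting command in the header sets no strand option, so reads of overlapping genes on opposite strands cannot be told apart. Of 14 count columns, 4 match no sample described here and were not used.

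From these counts, genes were filtered with filterByExpr and KO was compared with HET in edgeR 4.0.16 (R 4.3.3) with TMM scaling and the quasi-likelihood F test, with Benjamini-Hochberg adjustment over 11870 genes and a threshold of 0.05. CPM are counts per 1000000 of the TMM-scaled total, and SDs are over 5 libraries. Standard errors are the log2 fold change divided by the square root of F. Totals of 8086656 to 25237696 set the precision of low counts. No 2 libraries of a group agreed within sampling noise (chi-square per degree of freedom 10.8 to 37.5 over 20 pairs). Alternatives were RLE, upper-quartile and no scaling, other filters, a replicate block, a covariate of Y-linked genes, DESeq2 1.42.0, limma 3.58.1 voom, thinning, and leaving out each library. Leaving out HET 4 and KO 1 together was chosen after seeing the data. The fit was also run on simulated counts in which each gene was drawn independently of the others. That run does not bear on genes that rise and fall together across libraries, as many members did.

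The members, the role groups, the marker lists and the other cell-cycle list were chosen with earlier results of these data known. Values in every library are given for members that were called, that had an unadjusted p below 0.05, or that had the largest mean CPM of their role group. Of the other cell-cycle genes, those called and the 2 with the largest mean CPM in each group are named.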

Additional observations from a re-analysis of the deposited data

Results flagged for a closer look

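In groups of 5, a library was looked at again where its gap to the nearest other library was over 0.71 of the group's whole range. Of 114 groups examined, 9 met this, and chance gives about 1 in 20 groups. On the log2 CPM scale, KO 1 was low for Mcm2 (3.97, nearest 4.61) and Aurkb (1.18, nearest 1.85). HET 4 was high for Mcm6 (5.08, nearest 4.5), Plk1 (3.05, nearest 2.48) and Ube2c (4.63, nearest 4.01). HET 1 was low for Aurka (2.33, nearest 3.03) and Incenp (2.42, nearest 3.03). The total count of HET 1 was 25237696, and the next HET library had 10309615. The summed leukocyte markers of HET 3 were 43.6 CPM, and the next HET library had 22.9 CPM.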

How the results depend on the processing

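Over all members and alternatives, 794 of 831 values had the sign and the call of the main analysis, 24 became called, 4 lost the call and 9 changed sign. Members called, all of them lower, numbered 4 in the main analysis (10%, against 18.9% of all genes called and 8.64% called lower). With DESeq2 they numbered 8 (20%, against 22.1% called and 11% called lower). On leaving out each library they numbered 3 to 9. There were 9 without KO 5 (22.5%, against 15.8% called and 7.15% called lower) and 3 without KO 2 (7.5%, against 15.3% and 6.91%). Other cell-cycle genes called numbered 9, with 14 under voom, 6 to 13 on leaving out each library, and 5 without HET 4 and KO 1. Mcm2 and Cenpf were called in all 21 alternatives. The log2 fold changes that changed sign were those of Aurkb under voom (0.036) and of 3 members on leaving out each library, Ube2c (-0.26 to 0.054, the highest without HET 4), Prc1 (-0.29 to 0.016, the highest without HET 4) and Ccnb2 (-0.32 to 0.023, the highest without KO 1). Without HET 4 and KO 1 they were 0.015 for Mcm6, 0.12 for Ccnb2, 0.092 for Aurkb, 0.12 for Ube2c and 0.15 for Prc1. The cause was not tested. With library totals alone, 68.9% of all calls were higher, against 54.3% with TMM, and the median of all genes moved by 0.0816. With the replicate number as a block, 8 members were called, 8 of them lower (20%, against 18.4% of all genes called and 8.85% called lower). An unadjusted p below 0.05 was then found for 19 members. The correlations of same-numbered libraries were 0.112, -0.0124, -0.0604, 0.185 and 0.141, and only 2 of 5 numbers correlated best with their own. Correlations this weak, over 5 pairs, neither show nor exclude a pairing by number, and the labels give none. After thinning to the smallest total, 3 members were called and 15 had an unadjusted p below 0.05, the same number as in the main analysis. The share of all genes at that unadjusted p was not computed with the block or after thinning.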

Other observations

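Of the other cell-cycle list, 7 genes were too low to test. Cdkn2a, which encodes p16 and p19ARF, had 0 counts in every library, where 3 counts, the limit that a count of 0 allows, would be 0.126 to 0.384 CPM. Cdkn2b had 0 to 10 counts a library, E2f2 2 to 30, Mybl2 2 to 24, Orc1 1 to 14, Hjurp 1 to 11 and Kif14 0 to 17.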
